A study of Arabidopsis thaliana with 6 samples.

Results

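The genes that drive and mark cell division were followed in *Arabidopsis* embryos labelled as mutant or wild type for the transcription factor WRINKLED1 (WRI1). The set was chosen by family and locus identifier, with earlier results of these data known. It held 42 loci out of 24509 transcripts with at least 1 read. It comprised 6 A-type, 9 B-type and 9 D-type cyclins (CYCA, CYCB and CYCD), 5 cyclin-dependent kinases (CDKA and CDKB), 7 inhibitors of these kinases (KRP), *KNOLLE*, *MCM2*, *MCM5*, *PCNA1*, *PCNA2* and *E2FA*. Members are written with a hyphen, so that CYCD2-1 stands for the RefSeq symbol CYCD2;1. RNA-Seq was performed on 3 biological replicates from plants homozygous for *atwri1-1* and 3 from WT plants, all of the Col-0 ecotype and untreated, with embryos dissected from seeds 8 d after pollination. The former are called mutant-labelled libraries. A replicate pooled 25 to 30 whole embryos, the mutant group carried a single allele, and the measurement was an average over all embryo cells, so that fewer cells of a type and less RNA per cell cannot be told apart. The comparison asked whether transcripts tied to division differed in level between the genotypes at this stage.

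A plant cell enters division when D-type cyclins activate CDKA, which inactivates the retinoblastoma-related protein RBR1 and frees E2F transcription factors to switch on genes for DNA synthesis. The MCM proteins form the helicase that opens the DNA at replication origins, and PCNA is the clamp that holds the polymerase on the DNA. A-type cyclins act mainly in S phase and up to mitosis, B-type cyclins with CDKB kinases act from G2 into mitosis, and the KRP proteins bind cyclin-CDK complexes and inhibit them. KNOLLE is the syntaxin that fuses vesicles into the cell plate and is made only around cytokinesis. In embryos at this age the cotyledons are still growing by division, and storage reserves are beginning to form.

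The libraries held between 8510887 and 18933870 reads counted on transcripts. Counts were scaled by TMM to counts per 1e+06 reads (CPM). A count of 0 leaves room for 3 reads, or 0.148 to 0.338 CPM depending on the library, a limit that covers counting error only. *WRI1* itself did not serve as a check of the labels, since its CPM was 1256, 1100 and 1042 in mutant-labelled libraries against 186, 148 and 166 in WT, and the counts do not show the mutation. The 7 embryo markers were detected in all 6 libraries and summed to between 3886 and 6649 CPM in mutant-labelled libraries and between 3471 and 5196 CPM in WT. Of these, *LEC2* was called higher (24.6, 22.7 and 19.7 CPM against 8.95, 12.0 and 11.8 CPM, fold change 2.05, adjusted *p* = 0.0129). *ABI3* and *OLEO1* lay higher and *ATML1* lower in all 3 mutant-labelled libraries (fold changes 1.24, 1.63 and 0.80, adjusted *p* = 0.182, 0.0937 and 0.151), *LEC1* and *FUS3* had fold changes of 1.74 and 1.13, and the storage protein gene *CRA1* ran from 249 to 2270 CPM in mutant-labelled libraries and from 1068 to 2114 CPM in WT. The 10 endosperm markers summed to between 77.5 and 267 CPM in mutant-labelled libraries and between 73.9 and 396 CPM in WT, with *PHE1* at 0 reads in 5 of 6 libraries, *MEA*, *PHE1*, *IKU2* and *MINI3* below the filter on low counts, and *FWA* and *AGL62* called higher in mutant-labelled libraries at mean CPM of 1.90 and 1.71. The most abundant, *EPR1*, was not called and had 161, 39.5 and 104 CPM against 344, 41.0 and 80.7 CPM in WT (fold change 0.65, adjusted *p* = 0.673). *ZOU* lay higher in all 3 mutant-labelled libraries (fold change 2.48, adjusted *p* = 0.112). *ALE1* and *FIS2* had fold changes of 1.39 and 1.08, with overlapping groups. The 9 seed coat markers summed to between 141 and 297 CPM and between 151 and 202 CPM, with none called. The part of these tissues and of embryo stage in the values below was not tested. WT replicate 1 stood apart from the other WT libraries. It differed by more than 1.5-fold from the mean of the other WT libraries (after adding 0.5 CPM to each) in 39.1% of all genes tested and in 19.5% of the 41 members tested (7 above and 1 below). Without it, the sign of the log2 fold change turned in 8 of the 41 members, and these are given without it too. Other values also moved, and only part of them are given without it below. Among the rest, *CDKA-1* moved from 0.19 to 0.10, *E2FA* from 0.39 to 0.28 and *RBR1* from 0.28 to 0.18. *CYCA1-1* moved from 0.25 to 0.18 and *CYCA2-2* from -0.43 to -0.31. Away from 0 moved *CYCD3-3* (0.10 to 0.19) and *CYCD3-1* (-0.13 to -0.21).

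None of the division genes was called between the genotypes. A call required a fold change above 2 and, in edgeR's quasi-likelihood test, a *p* of 0.05 or less after Benjamini-Hochberg adjustment. Among 41 members tested, 0 were lower and 0 were higher, against 5.31% of all 18241 genes tested called lower and 1.08% called higher. At an unadjusted *p* under 0.05 there were 6 members with a positive and 3 with a negative log2 fold change, beside 9.86% and 15.3% of all genes, and DESeq2 and limma-voom also called 0. On the adjusted *p* alone, 3 members were higher (*PCNA1*, *KRP3* and *CYCD2-1*) and 0 were lower, beside 2.66% of all genes higher, 7.51% lower and 10.2% in either direction. Log2 fold changes over members had a median of 0.04, beside -0.01 over all genes tested, and ran from -0.83 in *KRP2* to 0.66 in *KRP3*. The sign was positive in 23 and negative in 18. With library size alone as the scaling it was positive in 30 and negative in 11, where the median of all genes tested moved to 0.17.

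The intervals bounded most of these changes. The 95% interval of the fold change lay within 2-fold in both directions for 36 of the 41 members (87.8%), beside 56.6% of all genes tested and 60.3% of the genes with a mean CPM in the members' range. That range took in 16818 of the 18241 genes tested, so these genes were not matched to the members in abundance. The 5 exceptions were *CDKB1-2*, *KRP1*, *KRP2*, *KRP3* and *KRP7*, of which *KRP1* and *KRP2* were the least abundant members per kilobase. The 3 values of a genotype lay entirely above or below those of the other in 14 members, 8 higher and 6 lower in mutant-labelled libraries, beside 35.0% of all genes tested (16.1% higher and 18.9% lower). *CYCD7-1* was the member not tested, with counts of 3, 6 and 4 in mutant-labelled libraries and 1, 6 and 31 in WT.

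**Figure D1:**
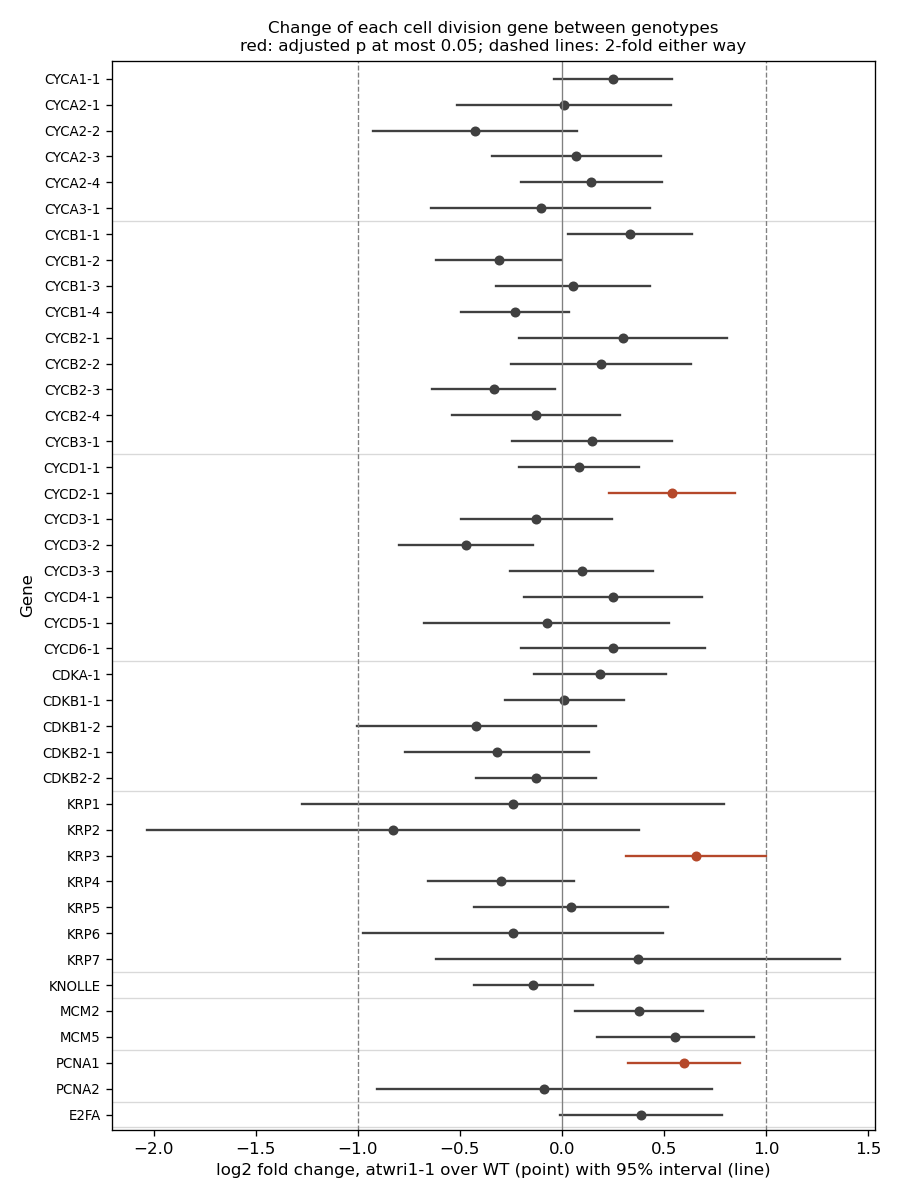
Log2 fold change of each of the 41 members tested, mutant-labelled libraries over WT (x axis), with its 95% interval as a line and genes by family on the y axis; red marks an adjusted p of at most 0.05 and dashed lines mark 2-fold. No point passes a dashed line, and the points run from -0.83 (KRP2) to 0.66 (KRP3).

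Levels differed far more between the members than between the genotypes. Expressed as RPKM, the CPM per kilobase of transcript, the mean over the 6 libraries ran from 1.41 in *KRP2* to 310 in *KNOLLE*. The next in order were *PCNA1* with 148 RPKM, *CYCD3-2* with 108, *PCNA2* with 99.5, *CYCA1-1* with 89.8 and *CDKB2-1* with 82.1. RPKM used the whole transcript length, although reads with several best places were dropped. The share of 31-base stretches found in no other transcript was 77.45% in *PCNA2* and 67.99% in *KNOLLE*, against 100% in *CYCD3-2*. The order of genes with near values is therefore uncertain. The ranges of the WT libraries of *PCNA1* (112 to 126 RPKM) and *CYCD3-2* (116 to 132 RPKM) overlapped, as did those of *PCNA2*, *CYCA1-1* and *CDKB2-1*. In mutant-labelled libraries *PCNA1* (173 to 181 RPKM) lay above *CYCD3-2* (80.2 to 103 RPKM), so their order depended on the genotype. *KNOLLE* was separate from all of them, with 306 to 345 RPKM in WT and 282 to 307 RPKM in mutant-labelled libraries.

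**Figure D2:**
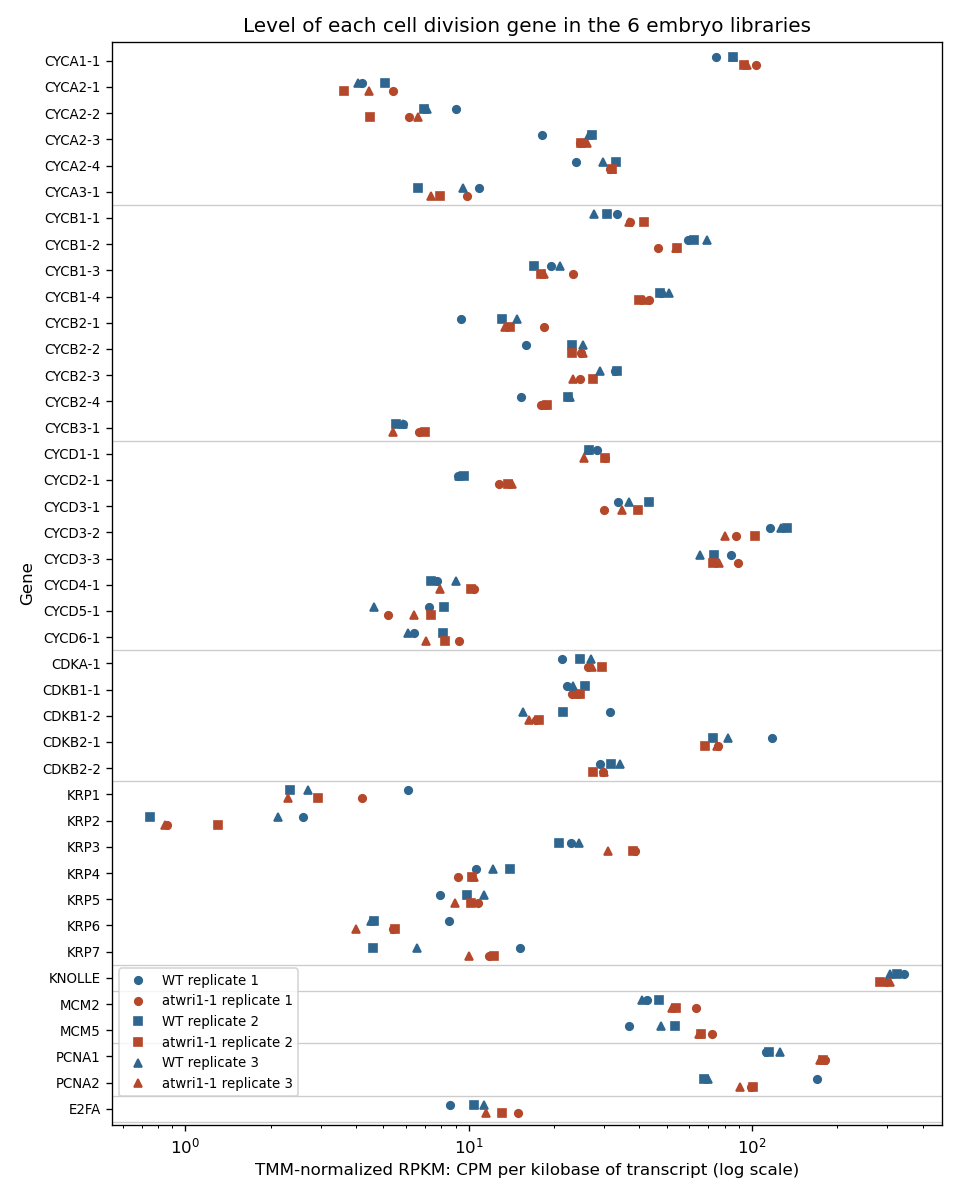
TMM-normalized RPKM of each of the 41 members tested in the 6 libraries, on a log scale; blue marks WT, red mutant-labelled libraries, and the symbol gives the replicate. Levels span from 1.41 RPKM (KRP2) to 310 RPKM (KNOLLE) on average, and the colours lie close together for most genes.

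Among the D-type cyclins, which carry growth signals to the cell cycle, one member was higher on the adjusted *p* and the most abundant one had the opposite sign. *CYCD2-1* (AT2G22490, chromosome 2, 9553797 to 9556167 in TAIR10.1) had 21.9, 23.6 and 24.5 CPM in mutant-labelled libraries and 15.7, 16.5 and 15.9 CPM in WT. The groups did not overlap. The fold change was 1.45 (95% interval 1.17 to 1.80, log2 fold change 0.54, SE 0.13, adjusted *p* = 0.0441). The adjusted *p* was 0.095 with the replicate number as a block, 0.0742 with no filter on low counts, 0.0144 without WT replicate 1 and between 0.0994 and 0.196 when any other library was left out. *CYCD3-2* (AT5G67260, chromosome 5, 26836139 to 26839597), one of the CYCD3 cyclins that keep young organs dividing, had 131, 153 and 119 CPM in mutant-labelled libraries and 173, 197 and 188 CPM in WT. All 3 values lay below those of WT, with a log2 fold change of -0.47 (SE 0.14) and an adjusted *p* of 0.083, which missed the threshold. That of DESeq2 was 0.0305, and without WT replicate 1 it was 0.0149.

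The other CYCD3 genes had values nearer to 0. *CYCD3-1* had a log2 fold change of -0.13 (SE 0.16) and *CYCD3-3* one of 0.10 (SE 0.15), and the groups overlapped in both. The ratio of raw counts of *CYCD3-2* to *CYCD2-1* within a library, which needs no scaling, was 5.99, 6.46 and 4.88 in mutant-labelled libraries and 11.0, 11.9 and 11.9 in WT. These ratios did not overlap. The pair was chosen after its values were seen, and both genes had separate groups, of opposite sign. Separate ratios followed from that choice, so no *p* is given for them. The remaining 4 tested, *CYCD1-1*, *CYCD4-1*, *CYCD5-1* and *CYCD6-1*, had log2 fold changes between -0.07 and 0.25, with overlapping groups.

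The KRP inhibitors had the widest range of log2 fold changes of any family. *KRP3* (AT5G48820, chromosome 5, 19792270 to 19794480), the most abundant of them with a mean of 29.3 RPKM, had 43.4, 42.7 and 34.8 CPM in mutant-labelled libraries and 25.8, 23.4 and 27.5 CPM in WT. The groups were separate, the fold change was 1.58 (95% interval 1.24 to 2.001, log2 fold change 0.66, SE 0.15) and the adjusted *p* was 0.0322. With the replicate block the adjusted *p* was 0.0735, without WT replicate 1 it was 0.0133, and when any other library was left out it lay between 0.0663 and 0.138. *KRP4* lay lower in all 3 libraries, with a log2 fold change of -0.30 (SE 0.15, adjusted *p* = 0.273), and without WT replicate 1 it was -0.40 (adjusted *p* = 0.0439). Only 61.8% of its transcript consisted of 31-base stretches found in no other transcript on either strand, because 926 bases of its exons overlap those of AT2G32720 on the opposite strand, and the counting dropped reads with several best places and did not use strand.

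*KRP7* depended on 1 library. It had 9.33, 9.66 and 7.89 CPM in mutant-labelled libraries and 11.9, 3.63 and 5.18 CPM in WT, so that WT replicate 1 was above and the other WT libraries below all of them. The log2 fold change was 0.37 (SE 0.42) with all libraries and 1.02 without WT replicate 1 (adjusted *p* = 0.0185), where it was the single member called. *KRP1*, *KRP2*, *KRP5* and *KRP6* had log2 fold changes between -0.83 and 0.04, adjusted *p* from 0.366 to 0.916 and overlapping groups. Without WT replicate 1 the sign turned in *KRP1* (-0.24 to 0.31), *KRP6* (-0.24 to 0.12) and *KRP5* (0.04 to -0.09), and that of *KRP2* did not (-0.83 to -0.48). *KRP2* was the least abundant member tested, with between 0.796 and 2.75 CPM.

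None of the 5 kinases passed the test. *CDKA-1*, the kinase used throughout the cycle, had 39.6, 44.2 and 40.8 CPM in mutant-labelled libraries and 32.0, 37.1 and 40.5 CPM in WT, a log2 fold change of 0.19 (SE 0.14, adjusted *p* = 0.447). *CDKB2-1* (AT1G76540, chromosome 1, 28720328 to 28722550), a plant-specific mitotic kinase and the most abundant CDK here, had 104, 93.6 and 103 CPM against 161, 99.9 and 113 CPM in WT. The groups overlapped, and the log2 fold change was -0.32 (SE 0.19, adjusted *p* = 0.353) with WT replicate 1 and -0.10 without it. *CDKB1-2* was also highest in that library, with 38.9 CPM there and 19.2 to 26.6 CPM in the other libraries, and its log2 fold change was -0.42 (SE 0.25) with it and -0.12 without it. Of its exons, 281 bases overlap AT2G38630 on the opposite strand. *CDKB1-1* and *CDKB2-2* had log2 fold changes of 0.01 and -0.13 (SE 0.13 in each), and that of *CDKB1-1* was -0.04 without WT replicate 1.

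Of the A-type cyclins, 5 of 6 had log2 fold changes between -0.10 and 0.25. *CYCA1-1* (AT1G44110, chromosome 1, 16774765 to 16777352), the most abundant of them, had 188, 171 and 175 CPM in mutant-labelled libraries and 136, 156 and 156 CPM in WT. The groups did not overlap, but the log2 fold change of 0.25 (SE 0.12) had an adjusted *p* of 0.26. *CYCA2-2* was the exception in size, with 11.2, 8.23 and 12.2 CPM against 16.6, 12.7 and 13.0 CPM in WT, and its log2 fold change of -0.43 (SE 0.21) had an adjusted *p* of 0.263. *CYCA2-3*, which acts with CDKB1-1, had a log2 fold change of 0.07 (SE 0.18). Without WT replicate 1 the sign turned in *CYCA2-1* (0.01 to -0.04), *CYCA2-3* (0.07 to -0.10) and *CYCA3-1* (-0.10 to 0.05).

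The B-type cyclins split in sign, 5 positive and 4 negative, and none passed the adjusted *p*. With library size alone 6 were positive and *CYCB1-1* passed (adjusted *p* = 0.0482). *CYCB1-1* (AT4G37490), the cyclin most used as a reporter of cells in G2 and mitosis, had 60.5, 67.9 and 59.9 CPM in mutant-labelled libraries and 54.2, 50.2 and 45.0 CPM in WT (log2 fold change 0.33, SE 0.13, adjusted *p* = 0.162). *CYCB1-2* (AT5G06150, chromosome 5, 1859279 to 1861703), the most abundant of the family, went the other way, with 80.5, 94.4 and 93.4 CPM against 103, 109 and 121 CPM (log2 fold change -0.31, SE 0.13, adjusted *p* = 0.192). The groups were separate in both genes. They were separate, and lower in mutant-labelled libraries, also in *CYCB1-4* (log2 fold change -0.23, SE 0.11) and *CYCB2-3* (-0.33, SE 0.13). Without WT replicate 1, *CYCB1-1* passed the adjusted *p* in the higher direction (log2 fold change 0.40, adjusted *p* = 0.0303) and *CYCB1-2* (-0.36, 0.0428) and *CYCB2-4* (-0.30, 0.0472) in the lower one. *CYCB1-2* shares 20.8% of its 31-base stretches with *CYCB1-5* and *CYCB2-3* shares 19.6% with AT1G20590, whose reads were lost to the counting. Summed over the 9 genes, the family had between 419 and 434 CPM in mutant-labelled libraries and between 427 and 477 CPM in WT, which overlap.

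Cytokinesis, read through *KNOLLE* (AT1G08560, chromosome 1, 2709525 to 2711000), showed no difference that passed the test. Its level was 411, 391 and 426 CPM in mutant-labelled libraries and 478, 452 and 424 CPM in WT. The fold change was 0.91 with a 95% interval of 0.74 to 1.11 (log2 fold change -0.14, SE 0.12, adjusted *p* = 0.524). With library size alone as the scaling the sign turned, to 0.03 on the log2 scale. Its exons overlap those of AT1G08550 on the opposite strand by 464 bases, and 68.0% of its 31-base stretches were its own.

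Of the S-phase members, *PCNA1* was higher on the adjusted *p*, *MCM2* and *MCM5* lay higher in all 3 mutant-labelled libraries without passing it, and the sign of *PCNA2* turned on 1 library. *PCNA1* (AT1G07370, chromosome 1, 2263037 to 2264553) had 205, 202 and 196 CPM in mutant-labelled libraries and 127, 130 and 142 CPM in WT. The lowest value in mutant-labelled libraries lay above the highest in WT by more than the range within either genotype. The fold change was 1.51 (95% interval 1.25 to 1.83, log2 fold change 0.60, SE 0.12) and the adjusted *p* was 0.0203. With the replicate block the adjusted *p* was 0.0576, without WT replicate 1 it was 0.00278, and with any other library left out it lay between 0.0578 and 0.103.

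*PCNA2* (AT2G29570), which encodes a nearly identical clamp, had 117, 119 and 107 CPM in mutant-labelled libraries and 201, 80.3 and 82.8 CPM in WT. WT replicate 1 was thus above and the other WT libraries were below all 3, and the log2 fold change was -0.09 (SE 0.35, adjusted *p* = 0.904). Without WT replicate 1 it was 0.48 (adjusted *p* = 0.00725). Within a library the ratio of *PCNA1* to *PCNA2* counts was 1.75, 1.70 and 1.83 in mutant-labelled libraries, 1.62 and 1.71 in WT replicates 2 and 3, and 0.633 in WT replicate 1. The transcripts share 1.00% of the 31-base stretches of *PCNA1*, so reads of these genes were largely told apart, while 279 bases of *PCNA2* exons overlap AT2G29560 on the opposite strand.

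*MCM5* (AT2G07690, chromosome 2, 3522984 to 3527500) had 194, 178 and 175 CPM in mutant-labelled libraries and 99.4, 144 and 129 CPM in WT. The groups did not overlap, with a log2 fold change of 0.55 (SE 0.16) and an adjusted *p* of 0.0805. DESeq2 gave an adjusted *p* of 0.0249, and without WT replicate 1 the log2 fold change was 0.41 (adjusted *p* = 0.0176). *MCM2* (AT1G44900) had 200, 170 and 165 CPM against 135, 148 and 129 CPM in WT (log2 fold change 0.38, SE 0.13, adjusted *p* = 0.133), again with separate groups. *E2FA* (AT2G36010, chromosome 2, 15119516 to 15123184), an activating E2F factor, had 28.8, 25.4 and 22.3 CPM against 16.6, 20.17 and 21.8 CPM. Its groups were separate by a small margin, and the log2 fold change was 0.39 (SE 0.17, adjusted *p* = 0.207).

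**Figure D3:**
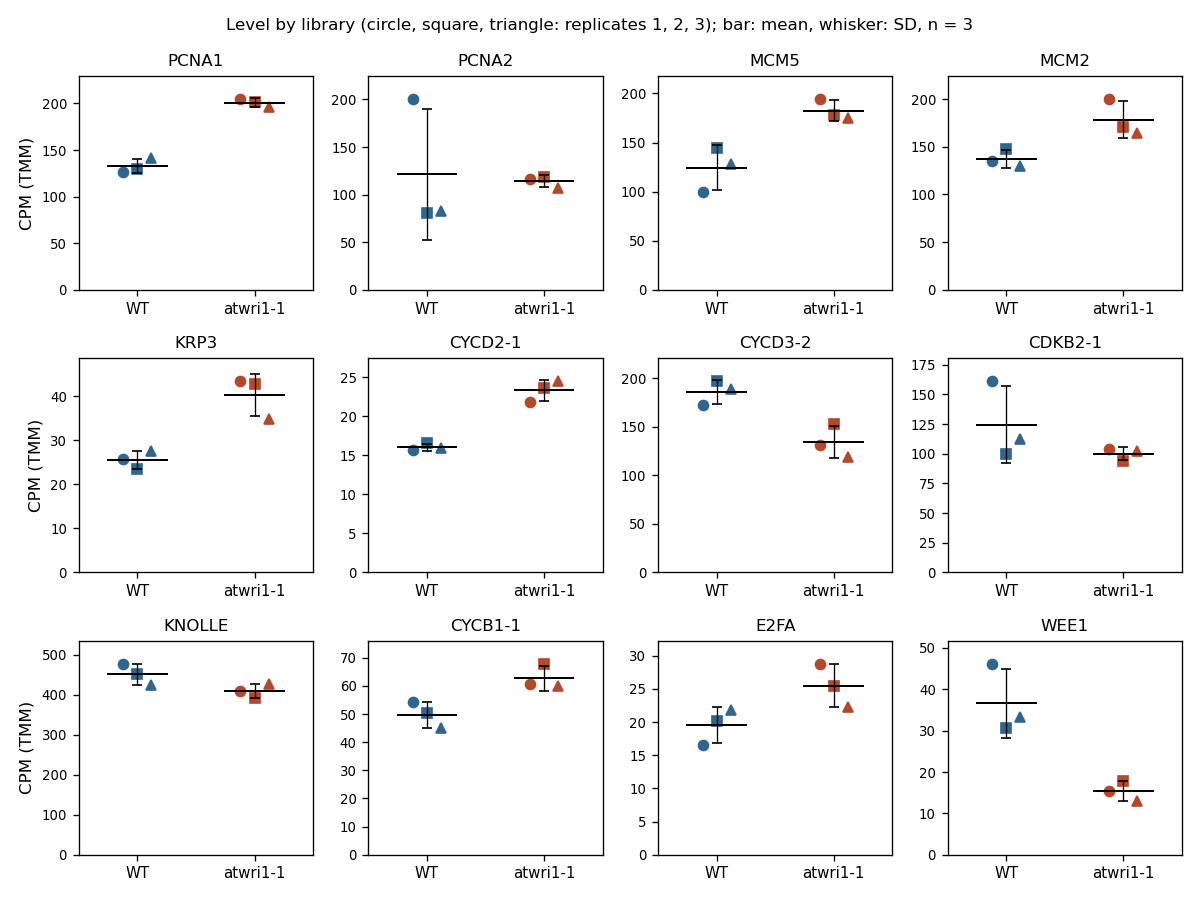
TMM-normalized CPM of 11 members and of WEE1 in each library; circles, squares and triangles are replicates 1, 2 and 3, the bar is the mean and the whisker the SD (n = 3). PCNA1, MCM5, MCM2, KRP3, CYCD2-1 and CYCB1-1 lie higher and CYCD3-2 and WEE1 lower in every mutant-labelled library, while WT replicate 1 alone is high in PCNA2 (201 CPM) and CDKB2-1 (161 CPM).

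Genes that work with the members were read from 5 further lists, 64 genes in all, of which 62 were tested. In the replication list, 17 of 20 genes had a positive and 3 a negative log2 fold change, with a median of 0.25 beside -0.01 over all genes tested, and 0 were called. Without WT replicate 1, 10 of the 20 were positive and the median was 0.07. The complete helicase, MCM2 to MCM7, was positive in 6 of 6 genes, with log2 fold changes from 0.28 (*MCM7*) to 0.61 (*MCM6*) and a median of 0.51 (0.39 without WT replicate 1). The sign was positive in all 6 under every alternative run, each of which reused these libraries. The groups were separate and higher in mutant-labelled libraries for 6 of 6, beside 16.1% of all genes. These genes encode parts of the same complex and were read in the same libraries, so they are not independent cases. *MCM6* passed the adjusted *p*, with 129, 130 and 124 CPM against 73.3, 92.2 and 84.6 CPM in WT (adjusted *p* = 0.0273). So did *RNR1*, the large subunit of the reductase that makes deoxynucleotides, with 302, 319 and 307 CPM against 202, 224 and 202 CPM (log2 fold change 0.56, SE 0.12, adjusted *p* = 0.028). With the replicate block these values were 0.0565 and 0.0645, and without WT replicate 1 they were 0.00371 and 0.0036. With any other library left out they lay between 0.046 (without WT replicate 2) and 0.118 for *MCM6* and between 0.0602 and 0.134 for *RNR1*. *TSO2*, a small subunit of the same enzyme, and *MCM3*, the other abundant genes of the list, had log2 fold changes of 0.46 (adjusted *p* = 0.143) and 0.54 (adjusted *p* = 0.0614), and without WT replicate 1 they were 0.61 (adjusted *p* = 0.00376) and 0.49 (adjusted *p* = 0.03). *RNR2A*, also of this enzyme and on the list, went the other way, with a log2 fold change of -0.39 (adjusted *p* = 0.196). Its groups overlapped, and without WT replicate 1 the value was -0.28. Of the 7 origin recognition genes, 5 had a positive log2 fold change, namely *ORC1A* (0.08), *ORC1B* (0.38), *ORC2* (0.24), *ORC3* (0.21) and *ORC6* (0.02). *ORC4* and *ORC5* had negative ones of -0.60 and -0.40. The groups were separate in *ORC2* and *ORC5* and none of the 7 passed the adjusted *p*. *ORC4* had 69.4 CPM in WT replicate 1 and 27.1 to 33.6 CPM in the other libraries, and without that library its log2 fold change was -0.13, while *ORC1A* and *ORC6* turned to -0.03 and -0.04.

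The E2F, DP and RBR list had 7 of 8 positive, with a median of 0.20 and 0 called, and 5 of 8 without WT replicate 1 with a median of 0.14. *RBR1*, its most abundant gene, had 120, 118 and 125 CPM in mutant-labelled libraries and 85.7, 105 and 107 CPM in WT (log2 fold change 0.28, SE 0.13, adjusted *p* = 0.238). *DPB* and *E2FB* had log2 fold changes of 0.00 and 0.27, with overlapping groups, and of -0.18 and -0.07 without that library. In the mitosis and cytokinesis list the sign was positive in 6 and negative in 5 of 11 genes, the median was 0.00, 0 were called, and the groups overlapped in every one. Without WT replicate 1, 2 of the 11 were positive and the median was -0.12. *HINKEL*, the kinesin of the cell-plate-forming phragmoplast, had 265, 269 and 277 CPM against 213, 273 and 290 CPM (log2 fold change 0.06, SE 0.15, and -0.06 without WT replicate 1), and *MAD2*, of the spindle checkpoint, and AT4G14330 had -0.25 (SE 0.15) and 0.00 (SE 0.21), and -0.12 and -0.21 without that library.

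**Figure D4:**
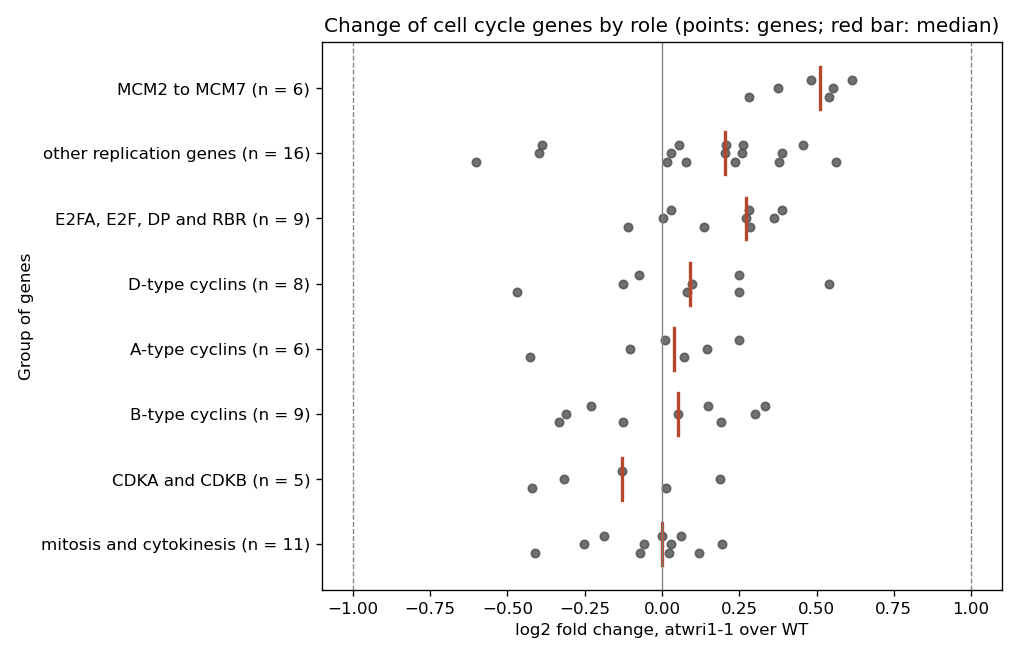
Log2 fold change, mutant-labelled libraries over WT (x axis), of every tested gene of 8 groups by role (y axis); points are genes, the red bar is the group's median and dashed lines mark 2-fold. The 6 MCM genes all lie right of 0 (median 0.51), while the 9 B-type cyclins (median 0.05) and the 11 mitosis and cytokinesis genes (median 0.00) lie on both sides.

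Only *WEE1* was called among these 62 genes, beside 6.39% of all genes called in either direction. *WEE1* (AT1G02970) encodes the kinase that inhibits CDKs when DNA replication is disturbed. It had 15.5, 17.8 and 13.1 CPM in mutant-labelled libraries and 46.2, 30.6 and 33.2 CPM in WT, without overlap. Its log2 fold change was -1.24 (SE 0.21, adjusted *p* = 0.011). It was no longer called without replicate 1 (adjusted *p* = 0.0622) or replicate 3 (0.0635) labelled *atwri1-1*, and it was called without each of the other libraries and with the block. Of the other CDK partners and regulators, *CCS52B*, an activator of the anaphase-promoting complex, had a log2 fold change of 0.22 (SE 0.13), and *CKS2* and *CDC20.1* had -0.55 (SE 0.30) and -0.51 (SE 0.33). Both of the latter were high in WT replicate 1 alone, with 164 and 150 CPM there and at most 80.7 and 69.4 CPM in the other libraries, and without it their log2 fold changes were -0.10 and 0.01. Among other cyclins, *CYCA3-4*, *CYCA3-2* and *CYCD4-2* had log2 fold changes of 0.14, 0.01 and 0.15, with overlapping groups, and of -0.04, -0.09 and 0.30 without WT replicate 1.

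Ratios within a library, which need no scaling between libraries, set S-phase transcripts against mitotic ones and against *CDKA-1*, used throughout the cycle. Reads on the 6 MCM genes over reads on the 9 B-type cyclins came to 2.58, 2.25 and 2.30 in mutant-labelled libraries and 1.58, 1.75 and 1.53 in WT. The mean was 2.38 ± 0.18 (SD, n = 3) against 1.62 ± 0.12, and the groups did not overlap. The two-sided exact permutation *p* was 0.1, the smallest that 3 against 3 allows. It was 0.25, again the smallest possible, when genotypes were exchanged only within pairs of the same replicate number. *PCNA1* over *KNOLLE* was 0.499, 0.516 and 0.460 in mutant-labelled libraries and 0.265, 0.287 and 0.335 in WT, again without overlap and with the same *p* values. *PCNA1* over *CDKA-1* was 5.17, 4.57 and 4.80 against 3.96, 3.50 and 3.51 in WT, also without overlap and with the same *p* values. Separate *PCNA1* ratios were thus not particular to a mitotic denominator. The ratios were chosen with the genes' own values known and add no independent evidence to them. In each of them, WT replicate 1 lay on the same side as the other WT libraries. *PCNA2*, which was high in that library alone (201 CPM), was in none of them.

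Promoters of the MCM genes, B-type cyclins and *KNOLLE* are shown because they hold different known elements. A link between these elements and the values was not tested. Windows from 250 bases before to 50 after the start of each counted transcript were read from the RefSeq TAIR10.1 genome for all 42 members and searched on both strands. The E2F site was searched as TTTCCCGC, TTTCCCGG, TTTCGCGC, TTTCGCGG, TTTGCCGC, TTTGCCGG, TTTGGCGC and TTTGGCGG, and the core of the mitosis-specific activator (MSA) element, which MYB3R factors bind, as CNAACGG. Matches of both motifs overlapped in 2 of 27442 promoters. An E2F site was found in 6 of 6 MCM promoters, 15 of 20 of the replication list and 3.69% of all promoters. The MSA core was found in 7 of 9 CYCB promoters (all but *CYCB2-4* and *CYCB3-1*), in those of *KNOLLE* and *CYCA1-1*, and in 5.51% of all promoters. It was found in only 1 of 11 promoters of the mitosis and cytokinesis list. The E2F, DP and RBR list held it in 2 of 8 and the replication list in 2 of 20. One match for each MCM gene and for 4 genes with the MSA core is given 5′ to 3′ on the gene's own strand, with the match in capitals (the reverse complement where the match is on the other strand).
MCM2 (chr1:16970190-16970217, plus strand): ggcgccaataTTTCCCGCctaatcgacg
MCM3 (chr5:18773748-18773775, minus strand): atgacccttcCCGCCAAAaagggtacag
MCM4 (chr2:7130747-7130774, minus strand): agtaataatgGCGCCAAAatcaagtgaa
MCM5 (chr2:3527502-3527529, minus strand): ggcccatcagTTTCCCGCcacattgttc
MCM6 (chr5:18010696-18010723, minus strand): atactttttaGCGGGAAAatgttagagg
MCM7 (chr4:901356-901383, plus strand): ctataatactTTTCCCGCctaaactcat
CYCB1-1 (chr4:17624353-17624379, minus strand): aacaatcagaCCGTTGGggttcattta
CYCB1-2 (chr5:1861832-1861858, minus strand): tatttacagtCCAACGGcctcattcga
CYCB2-3 (chr1:7137880-7137906, minus strand): tggcgttgatCCAACGGctgagatgaa
KNOLLE (chr1:2710972-2710998, minus strand): caaaatatagCCGTTGGggcgaagaaa

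The first base of these matches lay at -40 (*MCM2*), -62 (*MCM3*), -35 (*MCM4*), -19 (*MCM5*), -46 (*MCM6*) and -9 (*MCM7*) from the start of the counted transcript, and at -61, -145 and -68 in the B-type cyclins and 13 in *KNOLLE*. The counted transcript of *MCM7* began inside the annotated gene, which starts at 900636, while the match starts at 901366. *MCM5* held a second E2F site at -1 and *MCM3* another at -173, and *CYCB1-2* held 5 matches to the MSA core. Genes with the MSA core had both signs, with *CYCB1-1* above and *CYCB1-2* below the WT values in each mutant-labelled library. Listed genes with an E2F site also had both signs. Log2 fold changes were negative in *ORC4* (-0.60), *CYCA3-1* (-0.10) and *CYCD5-1* (-0.07) and positive in the rest. Without WT replicate 1 these were -0.13, 0.05 and -0.01. *CYCA3-4*, *CDT1A*, *CDC6A*, AT1G07270, *ORC1A*, *ORC6* and *CDC45* then turned negative. Neither motif was found in the windows of the 2 PCNA, 5 CDK and 7 KRP genes or of *E2FA*, and among other members an E2F site was found in *CYCA3-1*, *CYCD3-3* and *CYCD5-1*. *PCNA1* and *KRP3*, which passed the adjusted *p*, thus held neither spelling, and nor did *CYCD2-1*. A match is a run of letters and not evidence of binding.

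**Figure D5:**
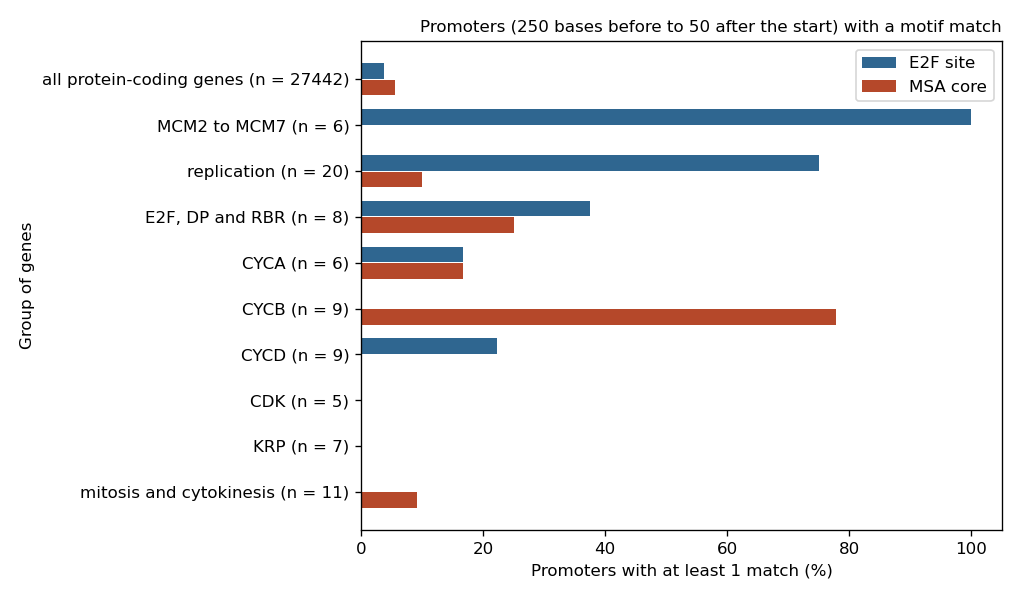
Share of promoters (x axis, %) with at least 1 match to the E2F site (blue) or the MSA core (red), for all protein-coding genes and 9 groups of cell cycle genes (y axis, with the number of promoters). The E2F site was present in 6 of 6 MCM and 0 of 9 CYCB promoters, and the MSA core in 0 of 6 MCM and 7 of 9 CYCB promoters. The MSA core was present in 1 of 11 mitosis and cytokinesis promoters.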

How the data were processed

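After removal of rRNA reads, the authors aligned reads with Bowtie 0.12.7 against the primary transcripts of TAIR10, kept those with a single best place and deposited raw counts, with strand not used. A row naming no transcript, 39.6% to 86.6% of a file's total (86.6% in *atwri1-1* replicate 1), was left out. The authors' table of normalized values (edgeR 3.10.5) was not used.

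The analysis used edgeR 4.0.16 in R 4.3.3, with filterByExpr (18241 genes kept), TMM (factors 0.882 to 1.07), glmQLFit and glmQLFTest on 3 against 3 libraries, with Benjamini-Hochberg adjustment over all genes. SE is the size of the log2 fold change over the root of F, and intervals use the test's *t* distribution. RPKM divides CPM by the RefSeq TAIR10.1 transcript length. Alternatives were other filters, scalings and thresholds, DESeq2 1.42.0, limma 3.58.1, edgeR's exact test, a replicate block and each library left out. Permuting ratios within pairs was added after the data were seen. Scripts were tested on simulated data. Motifs were searched in Python 3.11.15, and 24172 of 24509 transcripts matched the reference by number.

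Libraries of the same replicate number deviated together from their group means (correlations 0.273, 0.280 and 0.236, against -0.233 to 0.0228 for different numbers). Deviations within a group cancel out, so positive correlations for the same number push the others down. From these values the numbers were taken as pairs, but only in the replicate block and the permutation within pairs. The main test was unpaired. Replicates within a genotype differed beyond sampling noise.

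Members and lists were chosen with earlier results of these data known. Values in every library were given for members with an adjusted *p* of at most 0.05 or separate groups and a log2 fold change beyond 0.5, for the most abundant of each family, and for *KNOLLE* and *E2FA*. In the other lists, called genes and the 3 of highest CPM were named. *CYCD3-1*, *CYCD3-3*, *KRP4*, *KRP7*, *CDKA-1*, *CDKB1-2*, *CYCA2-2*, *CYCB1-1*, *MCM2*, *PCNA2*, *MCM6*, *ORC4* and other genes outside this rule were chosen after their values were seen.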

Additional observations from a re-analysis of the deposited data

How the results depend on the processing

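The count of members called lower was 0 under each of the 17 alternatives. The count called higher was 0 except with no fold minimum (3) and ranged from 0 to 1 over libraries left out, the 1 being *KRP7* without WT replicate 1. The median log2 fold change over members moved to 0.21 with library size alone, where that of all genes was 0.17, and ranged from 0.0029 to 0.068 over libraries left out. Of the other cell cycle genes, the count lower was 0 with the stricter adjusted *p* threshold of 0.01 and 0 to 1 over libraries left out, and the count higher was 2 with no fold minimum.

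In the replicate block that pairs the libraries by number, 0 members were called, the median over members was 0.054, *WEE1* was called (adjusted *p* = 0.0208), and 0 members passed the adjusted *p* alone, against 3 without it. On the adjusted *p* alone, 0 members passed without any one library except WT replicate 1, without which 7 were higher and 4 lower, beside 8.31% and 12.9% of all genes. DESeq2 passed 4 higher and 1 lower, beside 5.26% and 10.5% of all genes. The intervals of *KRP1*, *KRP2* and *KRP7* extend beyond 2-fold, with *KRP7* at 11.9 CPM in WT replicate 1.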
